A study of Mus musculus with 4 samples.

Results

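A set of 10 genes of epithelial identity was followed across MB49 tumours: the luminal keratin genes Krt7, Krt8, Krt18 and Krt19, the basal keratin genes Krt5 and Krt14, and the squamous genes Sprr1a, Sprr1b, Sfn and Anxa8. They are 10 of the 30408 genes listed in the 4 libraries together. MB49 is a bladder carcinoma line that came from a male mouse. Tumours of the line were taken from male and female mice, dissociated with collagenases, DNase and dispase, and sorted on CD45, the surface protein of leukocytes that Ptprc encodes. Single cells were captured on the BD Rhapsody microwell system, and unique molecular identifiers (UMIs) were counted. The 4 groups were CD45-negative cells of male mice, CD45-negative cells of female mice, CD45-positive cells of male mice and CD45-positive cells of female mice, with 1 library each. All 4 groups share the MB49 line, and the labels name no other treatment. The sources used here do not give the strain or age of the mice, or how many tumours went into a library. With 1 library per group no difference between male and female hosts could be tested over animals, and host sex cannot be told apart from any other difference between the libraries. Values are therefore compared by size, and every interval is a 95% interval for counting error only.

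Keratins are the intermediate filament proteins of epithelia and work as pairs of a type II and a type I chain. Simple and luminal epithelia pair Krt8 or Krt7 with Krt18 or Krt19, whereas the basal cells of stratified epithelia, the urothelium included, pair Krt5 with Krt14. Squamous differentiation adds small proline-rich proteins such as Sprr1a and Sprr1b, which transglutaminases cross-link into the cornified envelope. Bladder carcinomas are commonly sorted by whether they carry luminal, basal or squamous genes.

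The values below come from Ptprc-negative cells of the CD45-negative gate, 5476 cells with 61290329 UMIs from male hosts and 3891 cells with 43467951 UMIs from female hosts, called male-host and female-host cells here. Their median depth was 9919 UMIs per cell in male-host cells and 10586 in female-host cells. Before filtering, 40 barcodes of the male library and 710 of the female library had under 500 UMIs. The 10 genes were all listed in both CD45-negative libraries. Levels are given as CPM, the UMIs of a gene summed over cells and scaled to a total of 1000000 UMIs, and were not divided by transcript length because each UMI stands for 1 captured molecule. The epithelial label was checked against other genes. Epcam, an adhesion molecule of most epithelia, had 5 UMIs in male-host cells and 1 in female-host cells, and the E-cadherin gene Cdh1 stood at 2.50 CPM in male-host and 6.23 CPM in female-host cells. The mesenchymal filament gene Vim stood at 6723 CPM in male-host and 7797 CPM in female-host cells. The 6 urothelial markers, uroplakins, Krt20 and Gata3, summed to 38.8 CPM in male-host and 64.1 CPM in female-host cells, nearly all of it Gata3. The 8 skin keratinocyte markers, Krt1, Krt10 and Krt15 among them, summed to 43.0 CPM in male-host and 32.1 CPM in female-host cells, with 2 of them at 0 in each. The 8 fibroblast markers summed to 4191 CPM in male-host and 4090 CPM in female-host cells, with 6 and 7 of the 8 above 10 CPM. So the keratins were read in cells with little Epcam, Cdh1 or uroplakin RNA.

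Of the luminal keratins, Krt18 and Krt8 had the highest levels, Krt19 was found in a part of the cells, and Krt7 was close to absent. Krt18, the type I partner of Krt8, stood at 1612 CPM (interval 1602 to 1623) in male-host cells and 2015 CPM (2001 to 2028) in female-host cells. It lies on chromosome 15 at 102028180 to 102032027 in mm10. Its male:female ratio was 0.80 (0.793 to 0.808). Krt8, which encodes the type II chain of simple epithelia, lies 23.7 kb away on the opposite strand, at 101996698 to 102004482. It stood at 597 CPM (591 to 603) in male-host and 753 CPM (744 to 761) in female-host cells, a ratio of 0.794 (0.782 to 0.806). Both genes were thus lower in male-host cells by nearly the same factor.

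Krt19, a type I keratin without a tail domain, lies on chromosome 11 at 100140810 to 100148665. It stood at 281 CPM (276 to 285) in male-host and 236 CPM (231 to 241) in female-host cells, a ratio of 1.19 (1.16 to 1.22). Its UMIs were unevenly spread: the 10% of cells with most Krt19 held 63.0% of them in male-host and 50.2% in female-host cells. Krt7, a type II keratin of ducts and of the urothelium at chromosome 15, 101411043 to 101430313, had 9 UMIs in 9 cells of the male library and 2 UMIs in 2 cells of the female library. Those counts stand for 0.147 CPM (0.0671 to 0.279) and 0.0460 CPM (0.00557 to 0.166), and no order was read from them.

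To compare cells of unequal depth, each cell was thinned to 3000 UMIs, which left 4654 male and 3361 female cells. Krt18 was then found in 93.6% of male and 94.3% of female cells, and Krt8 in 72.8% and 78.3%. Krt19 was found in 33.4% of male and 37.5% of female cells, which goes against the order of its CPM, so no order was read from that share. A share of cells can also hold free RNA from lysed tumour cells. In the fibroblast-like, endothelial-like, pericyte-like and leukocyte-like clusters of the same libraries, 45 male cells with a median of 7270 UMIs and 83 female cells with a median of 8038 UMIs, Krt18 was still found in 29.7% of thinned male and 40.3% of thinned female cells. Krt8 was found there in 5.41% and 16.4%, and Krt19 in 5.41% and 5.97%. The remaining cells, with medians of 9955 UMIs in male-host and 10640 UMIs in female-host cells, had Krt18 in 94.1% and 95.4%.

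The basal pair was split: Krt14 was present and Krt5 was close to absent. Krt14, the type I keratin of basal cells, lies on chromosome 11 at 100203162 to 100207548, 54.5 kb from Krt19. It stood at 58.4 CPM (56.5 to 60.4) in male-host and 165 CPM (161 to 168) in female-host cells, and its male:female ratio was 0.355 (0.341 to 0.370). It was found in 11.7% of thinned male cells and 30.8% of thinned female cells. In the stromal and leukocyte clusters it was found in 0 of 37 and 2 of 67 thinned cells, with upper limits of 9.49% and 10.4%. Without thinning, Krt14 was found in 2.22% of the male and 12.0% of the female cells of these clusters, at 3.07 and 20.8 CPM. Krt5, its type II partner at chromosome 15, 101707070 to 101712898, had 4 UMIs in 4 cells of the male library and 12 UMIs in 7 cells of the female library, 5 of them in 1 cell. That is 0.0653 CPM (0.0178 to 0.167) in male-host and 0.276 CPM (0.143 to 0.482) in female-host cells. Of the 7 female cells with Krt5, 2 held Xist, the RNA of the inactive X chromosome that marks cells of the female host, and 5 held Krt14. Among the 2142 female-library cells with Krt14, 10 of them in the stromal and leukocyte clusters, 27 or 1.26% held Xist. Among the 3713 cells with Krt18, counted over all clusters alike, 1.51% did. Outside the stromal and leukocyte clusters Xist was held by 0.604% of the 3808 cells, and inside them by 66.3% of the 83 cells. Nearly all Krt14-positive cells were therefore without a host mark. The Krt14 transcript shares 188 stretches of 50 bases with that of Krt16 and 55 with that of Krt17, so reads could have been split between these genes.

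The squamous genes were unequal in level and in their male:female ratio. Sprr1a, a precursor of the cornified envelope on chromosome 3 at 92483952 to 92485895, stood at 1115 CPM (1106 to 1123) in male-host and 1315 CPM (1304 to 1326) in female-host cells. Its male:female ratio was 0.848 (0.838 to 0.857). Its neighbour Sprr1b, 45.2 kb away on the same strand at 92436809 to 92438789, stood at 209 CPM (205 to 212) in male-host and 485 CPM (478 to 491) in female-host cells. That is a ratio of 0.430 (0.421 to 0.440), so the paralogues had different ratios between the same libraries. Their transcripts were 74.9% identical where aligned but shared 0 stretches of 50 bases. How reads were assigned between them was not tested.

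Anxa8, which encodes a calcium-dependent membrane-binding annexin, lies on chromosome 14 at 34085981 to 34100571. It stood at 172 CPM (169 to 175) in male-host and 430 CPM (424 to 437) in female-host cells, a ratio of 0.399 (0.390 to 0.409). Sfn, which encodes the 14-3-3 sigma protein of stratified epithelia, lies on chromosome 4 at 133600556 to 133602168. It was the lowest of the 4, with 19.2 CPM (18.1 to 20.3) in male-host and 13.1 CPM (12.0 to 14.2) in female-host cells, a ratio of 1.47 (1.33 to 1.63). Sfn thus ran the other way from Sprr1a, Sprr1b and Anxa8.

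In thinned cells Sprr1a was found in 59.3% of male and 68.7% of female cells, Sprr1b in 22.8% and 45.8%, Anxa8 in 33.1% and 62.5%, and Sfn in 5.80% and 3.90%. In the stromal and leukocyte clusters Sprr1a was found in 24.3% of male and 32.8% of female cells, Sprr1b in 2.70% and 11.9%, Anxa8 in 10.8% and 8.96%, and Sfn in 0 of 37 and 0 of 67. Sprr1a, like Krt18, thus had a sizeable share in cells that should lack it. Either Sprr1 gene was found in 64.4% of male cells (63.0 to 65.8) and 77.9% of female cells (76.5 to 79.3). This share depends on depth: at 1000 UMIs per cell it was 42.9% in male-host and 55.5% in female-host cells, and without thinning it was 79.6% and 89.1%. The female share was the higher one at each depth.

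The Sprr1 start-site regions are shown because these neighbours were read in the same cells, as given below. The Sprr1a window is chr3:92485832-92486131 and the Sprr1b window is chr3:92438730-92439029, both on the minus strand from the RefSeq promoters of GRCm38.p6, 250 bases before to 50 bases after each start, read along the gene's strand. Capitals mark TGANTCA and the TATAAA motif, searched on both strands with no overlap between the matches. TGANTCA takes any base at N and is looser than the AP-1 consensus, which has C or G there.
Sprr1a: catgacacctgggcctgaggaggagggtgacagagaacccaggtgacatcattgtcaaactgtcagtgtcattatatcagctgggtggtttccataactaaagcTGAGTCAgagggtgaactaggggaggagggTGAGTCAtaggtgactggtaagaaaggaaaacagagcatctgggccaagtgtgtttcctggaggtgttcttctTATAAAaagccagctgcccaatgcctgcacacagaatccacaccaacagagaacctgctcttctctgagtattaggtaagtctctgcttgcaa
Sprr1b: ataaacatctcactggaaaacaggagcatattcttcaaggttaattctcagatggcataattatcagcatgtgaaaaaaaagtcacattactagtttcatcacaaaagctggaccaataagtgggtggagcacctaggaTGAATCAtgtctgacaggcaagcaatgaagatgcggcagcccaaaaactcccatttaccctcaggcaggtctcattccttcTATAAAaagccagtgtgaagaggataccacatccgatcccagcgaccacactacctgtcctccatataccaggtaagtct
Sprr1a holds 2 TGANTCA matches, both TGAGTCA, at positions -146 and -116 from the start site. Sprr1b holds 1, at -111, which reads TGAATCA and so matches the looser pattern only. The TATAAA match begins at -43 in Sprr1a and at -30 in Sprr1b. Of 27025 mouse promoter windows of the same length, 7.93% hold TGANTCA and 14.2% hold TATAAA. Of the other members, Krt19 is not in the table, and the windows of those that are were not compared because several lie away from the annotated gene start. A match of letters is a description and not a bound site.

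**Figure D1:**
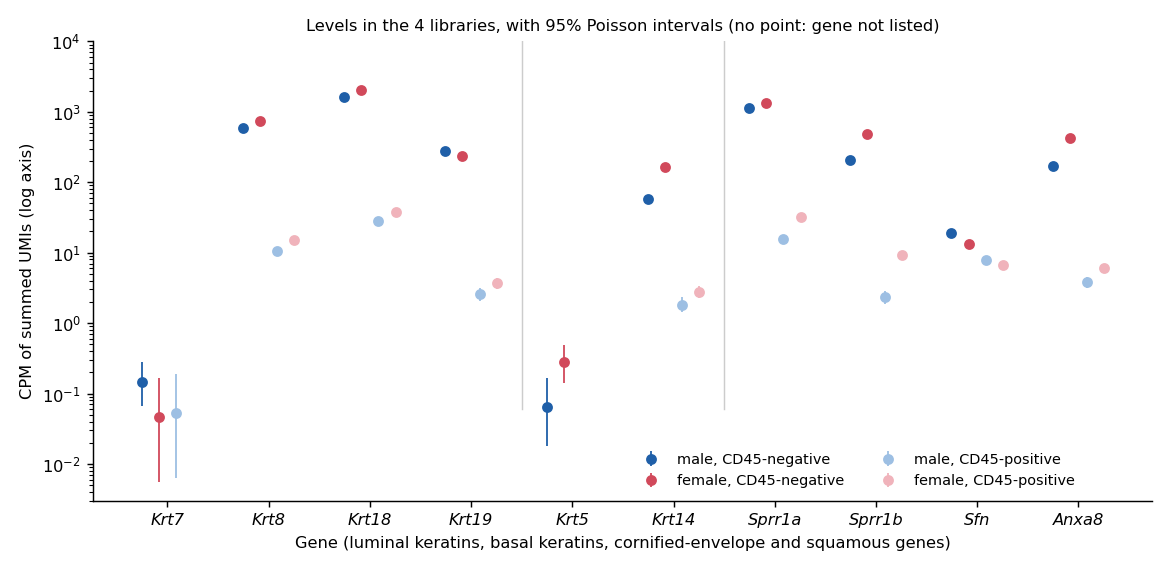
CPM of summed UMIs on a log axis for the 10 genes in the CD45-negative libraries (male, then female) and the CD45-positive libraries (male, then female), with 95% Poisson intervals, most of them narrower than the points. Krt5 in both CD45-positive libraries and Krt7 in the female one are not listed and have no point. Krt18 and Sprr1a lead, Krt7 and Krt5 lie under 1 CPM, and Krt14, Sprr1b and Anxa8 show the widest male to female gaps among the well counted genes.

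Set side by side, the luminal genes summed to 2490 CPM in male-host and 3003 CPM in female-host cells, the basal genes to 58.5 and 165 CPM, and the squamous genes to 1514 and 2243 CPM. The male:female ratios of these sums were 0.829 (0.823 to 0.835), 0.355 (0.341 to 0.370) and 0.675 (0.669 to 0.681). Luminal keratins made up 61.3% of the UMIs of the 10 genes in male-host and 55.5% in female-host cells, and squamous genes 37.3% and 41.5%. The order by level was Krt18, Sprr1a, Krt8 in both libraries. Below these came Krt19, Sprr1b, Anxa8 and Krt14 in male-host cells, and Sprr1b, Anxa8, Krt19 and Krt14 in female-host cells, with no overlap between the intervals of neighbours.

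Of the 10 genes, 7 had at least 100 UMIs over both CD45-negative libraries and at least 100 CPM in the higher of them, the level at which a ratio was counted. Krt7, Krt5 and Sfn did not, and Krt14 passed only through its female level. None of the 7 was at least 1.5-fold higher in male-host cells, and Krt14, Sprr1b and Anxa8 were so in female-host cells. Among all 2056 genes at that level, 3.4% were past 1.5-fold on the male side and 6.47% on the female side. The 3 genes were also past 2-fold, where the background was 0.827% on the male and 1.65% on the female side. In the order of the 2056 male:female ratios from the lowest, Krt14 was 9, Anxa8 was 11 and Sprr1b was 20. Krt8, Krt18, Sprr1a and Krt19 were 310, 327, 457 and 1653. Anxa8 and Sprr1b, at 100 CPM or more in both libraries, thus lay at the female end, and the other 4 lay among the bulk of genes. With 58.4 CPM in male-host cells, Krt14 could be counted only if it was past 1.5-fold on the female side. Its place and its part in the count of 3 were therefore set by that level, and nothing is read from them.

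Which of the genes were found in the same cells was asked with the thinned cells, by dividing the number of cells with both genes by the number given by the 2 shares. Sprr1a and Sprr1b were found together more often than the shares give in both libraries, with 822 cells against 628 counted from the shares in male-host cells and 1230 against 1057 in female-host cells. The ratios were 1.31 and 1.16. Sprr1b was found in 29.8% of male cells with Sprr1a and 12.6% of those without, and in 53.3% and 29.4% of female cells. The Pearson correlation of their thinned, log-transformed counts over cells was 0.41 in male-host and 0.48 in female-host cells. It is given as a description of cells that share a library.

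Krt8 and Krt18 were each in most cells, so their ratio could hardly leave 1 and was 1.02 in male-host and 1.03 in female-host cells. Read the other way, Krt8 was found in 73.9% of male cells with Krt18 and 56.7% of those without, and in 80.4% and 43.5% of female cells. These cells include the stromal and leukocyte clusters, where 11 of 37 male and 27 of 67 female thinned cells held Krt18. Krt8 was held there by 2 male and 11 female cells. Without these clusters the ratio of Krt8 with Krt18 was 1.01 in both libraries, and the shares were not counted again. The thinned, log-transformed counts of Krt8 and Krt18 correlated at 0.26 in male-host and 0.39 in female-host cells, stromal and leukocyte clusters included. Krt14 and Anxa8 were found together 1.39 times as often as their shares give in male-host and 1.06 times in female-host cells. For Krt19 and Sprr1b the ratio was 1.20 in male-host and 1.09 in female-host cells. Krt14 with Krt5 gave no usable ratio, with 0 male and 1 female thinned cell holding both. The other pairs of the 8 genes without Krt5 and Krt7 lay between 0.748 and 1.20 in male-host and between 0.965 and 1.19 in female-host cells. Both ends of each range were pairs with Sfn, which was found in only 270 male and 131 female thinned cells. The lowest was Sprr1b with Sfn in male-host cells, 46 cells against 61.5.

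**Figure D2:**
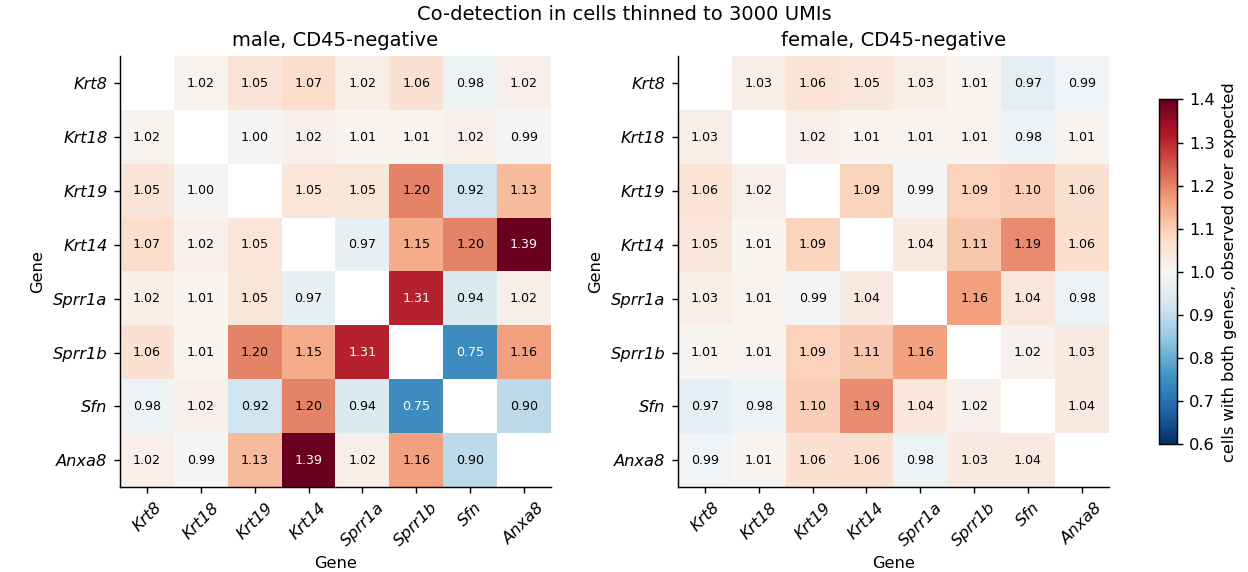
Cells with both genes of a pair divided by the number given by the shares of each gene, in 4654 male (left) and 3361 female (right) CD45-negative cells thinned to 3000 UMIs. Values over 1 are red: Sprr1a with Sprr1b reached 1.31 in male-host and 1.16 in female-host cells, and Krt8 with Krt18 stayed at 1.02 and 1.03 with both in most cells.

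Krt18 or another luminal keratin was found in 98.02% of male and 97.4% of female thinned cells, so the overlap of Krt14 or a Sprr1 gene with them is set by that share. The part of free Krt18 RNA and of doublets in these classes was not tested. Cells with Krt8 or Krt18 and a Sprr1 gene but without Krt14 were the largest class, 55.7% of male (54.2 to 57.1) and 51.7% of female cells (50.04 to 53.4). Cells with all 3 kinds of gene made up 7.37% (6.64 to 8.16) of male and 24.2% (22.7 to 25.6) of female cells. Krt14 was found with Sprr1a 0.970 times as often as their shares give in male-host and 1.04 times in female-host cells. With Sprr1b these ratios were 1.15 and 1.11. The size of this class thus moves with the single shares, and no separate population was read from it. Cells with Krt8 or Krt18 alone made up 30.0% of male and 15.03% of female cells. Krt14 without Krt8 or Krt18 was found in 3 male cells with and 4 without a Sprr1 gene, and in 20 and 8 such female cells.

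Cells were then ordered by their Sprr1 count. With 0, 1 to 2, 3 to 9, and 10 or more Sprr1a and Sprr1b UMIs per 3000, there were 1658, 1363, 1075 and 558 male cells and 743, 1032, 1025 and 561 female cells. Krt18 stood at 1478, 1549, 1638 and 1664 CPM in this order in male-host cells and at 1679, 1885, 2077 and 2127 CPM in female-host cells. Krt18 was thus higher in cells with more Sprr1 RNA in both. The classes include the stromal and leukocyte clusters, where Krt18 stood at 123 CPM in male-host and 188 CPM in female-host cells. Krt14 stood there at 3.07 and 20.8 CPM. The part of these clusters in the order was not tested. Krt14 stood at 55.9, 50.6, 53.6 and 48.4 CPM in male-host and at 129, 153, 172 and 169 CPM in female-host cells, and its intervals overlapped between the end classes in male-host cells only. Anxa8 stood between 166 and 189 CPM over the male classes and between 438 and 474 CPM over the female classes. Krt19 stood at 260 CPM in the lowest and 315 CPM in the highest male class, and at 253 and 229 CPM in female-host cells. So in female-host cells Anxa8, unlike Krt18, had little slope over the Sprr1 classes. In male-host cells Anxa8 stood at 166 CPM (155 to 178) in the lowest and 189 CPM (169 to 211) in the highest class. No contrast with Krt18 was read there. Depth before thinning moved with these classes: the medians were 10016.5, 11421, 13426 and 12699.5 UMIs in male-host and 9975, 10880.5, 13206 and 12777 UMIs in female-host cells, and its part in the order was not tested.

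Of other genes picked here after their values were seen, Sprr2k and Il1rn moved with the Sprr1 count. Sprr2k, another small proline-rich gene, stood at 5.03 CPM in male cells without and 42.4 CPM in male cells with 10 or more Sprr1 UMIs, and at 5.83 and 23.8 CPM in female cells. The interleukin-1 receptor antagonist gene Il1rn stood at 97.9 and 152 CPM in male-host and at 94.2 and 187 CPM in female-host cells. Itgb4, a hemidesmosome integrin, stayed between 88.4 and 105 CPM in male-host and between 107 and 113 CPM in the female classes.

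**Figure D3:**
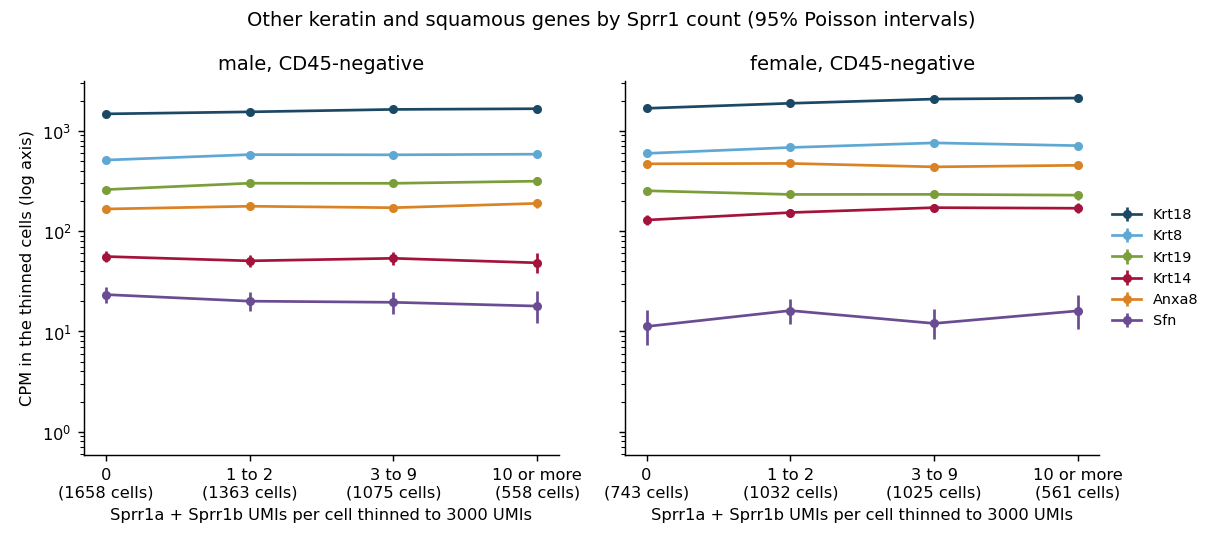
CPM (log axis, 95% Poisson intervals) of 6 other genes in cells grouped by Sprr1a and Sprr1b UMIs per cell, male CD45-negative library left and female right. Krt18 is higher toward the right in both. The intervals of Anxa8 and of Krt14 overlap between the end classes in male-host cells, and Krt14 is lowest in female cells without Sprr1 RNA.

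The cells were clustered without the 10 genes, the other keratin and Sprr genes, Xist or Y-linked genes, so the levels of the 10 genes across clusters were not used to draw them. The male and female libraries filled different clusters. Of the 12 clusters without a stromal or leukocyte name, 9 held at least 50 cells of each library, and these allowed a comparison within a cluster. Krt14 was lower in male-host cells in 9 of 9, with male:female ratios of 0.354 to 0.733, 8 of them past 1.5-fold. Anxa8 was lower in 9 of 9 (0.439 to 0.721, 7 past 1.5-fold) and Sprr1b in 9 of 9 (0.318 to 0.920, 4 past 1.5-fold). The intervals of these ratios lay under 1, except that of Sprr1b in the Pclaf-led cluster (0.818 to 1.04). The background was counted in each cluster, in the order of those led by Fbxo32, Lsmem1, Pclaf, Ube2c, Il24, Akr1c18, Mmp10, Ifit3 and Txnip. Past 1.5-fold on the male side were 4.36, 6.86, 3.99, 2.75, 2.36, 3.94, 2.96, 4.76 and 5.94% of genes, and on the female side 7.78, 6.46, 2.88, 6.69, 3.4, 5.68, 5.35, 6.68 and 5.55%. The Lsmem1-led cluster was shallow, with medians of 895 UMIs per male and 950 UMIs per female cell. The lower Krt14, Anxa8 and Sprr1b levels of the male library were therefore present inside clusters as well as in the sums. The gap was smaller in the median over the 9 clusters, with ratios of 0.465 for Krt14, 0.584 for Anxa8 and 0.675 for Sprr1b. Those of the whole libraries were 0.355, 0.399 and 0.430. The Sprr1b median was not past 1.5-fold.

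Sprr1a had no fixed order: it was lower in male-host cells in 5 and higher in 4 clusters, with ratios of 0.663 to 1.75, and in 2 of the 5, the Il24-led and the Txnip-led, the interval included 1. Krt18 was lower in male-host cells in 9 of 9 clusters and Krt8 in 7 of 9, with medians of 0.787 and 0.796, and the interval of Krt8 included 1 in the Ifit3-led cluster. Krt19 was higher in male-host cells in 7 of 9, 5 of them past 1.5-fold, with a median ratio of 1.85, a wider gap than the 1.19 of the whole libraries. Its interval included 1 in the Lsmem1-led, Ube2c-led and Txnip-led clusters. Sfn had a ratio over 1 in 9 of 9, but its interval included 1 in 7 of them. The other 2 were the Ube2c-led cluster, at 1.87 (1.32 to 2.69), and the Txnip-led cluster, at 3.24 (1.07 to 16.01), which rests on 3 female UMIs. Cells of the libraries that share a cluster are not matched one to one, and the larger cluster of a library can hold cells that the other lacks.

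**Figure D4:**
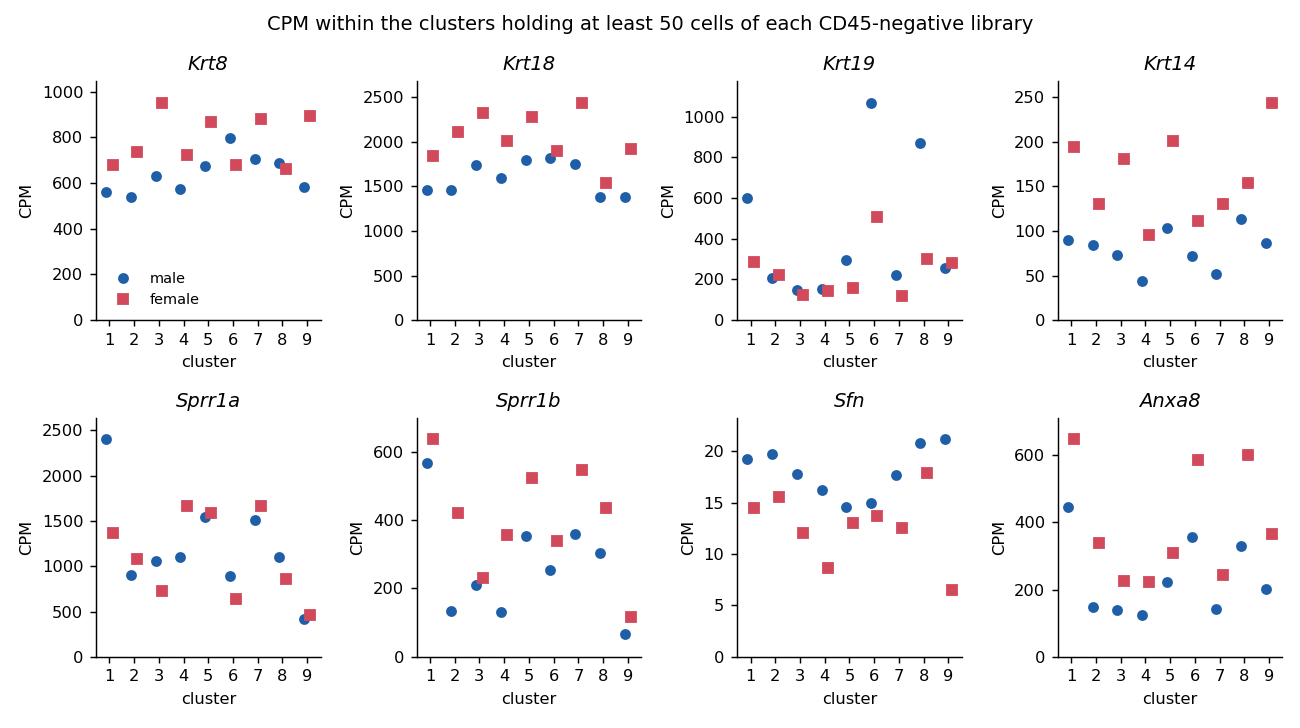
CPM of 8 genes in the 9 clusters with at least 50 cells of each CD45-negative library, male circles left of female squares. Male circles lie under female squares in every cluster for Krt18, Krt14, Sprr1b and Anxa8 and above them for Sfn, whose intervals mostly include a ratio of 1, whereas Sprr1a has no fixed order.

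Across the male clusters Krt18 was the most even of the 8 genes without Krt5 and Krt7, and Sprr1b, Krt14 and Krt19 were the least even. Over the 12 male clusters of at least 50 cells, Krt18 lay between 1382 and 1825 CPM, a 1.32-fold range, and Krt8 between 464 and 796 CPM. Krt14 lay between 11.3 and 113 CPM, a 10.05-fold range. Krt19 lay between 115 and 1068 CPM, a 9.28-fold range, and was highest in the cluster led by Akr1c18, Hspa1b and Adm. That cluster was also the highest in female-host cells, at 506 CPM. Sprr1b lay between 20.9 and 568 CPM in male-host cells, a 27.2-fold range, with its top in the cluster led by Fbxo32, Olr1 and Hmox1. The same cluster held the top Sprr1b level of the female library, 636 CPM, and the top Anxa8 levels, 447 CPM in male-host and 647 CPM in female-host cells. Krt19 thus had its top in another cluster than Sprr1b and Anxa8 did.

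The cluster led by Fgb, Itih2 and Cldn10, 314 male and 4 female cells, paired a high Krt19 level with low Krt14. Krt19 stood at 874 CPM, against 281 CPM in male-host cells as a whole, while Krt14 was at 11.3 CPM, Sprr1b at 20.9 CPM and Anxa8 at 55.7 CPM, each the lowest of the 12 male clusters. Krt19 was also high in the Akr1c18-led cluster, at 1068 CPM, the Ifit3-led, at 871 CPM, and the Fbxo32-led, at 601 CPM. Krt18 at 1470 CPM and Krt8 at 522 CPM lay within the range of the other clusters. The cluster led by Fam107a and Orm2, 1285 male and 32 female cells, had the next lowest Krt14 of the male clusters, 32.1 CPM. These clusters held 23.5% (Fam107a and Orm2) and 5.73% (Fgb) of the male cells, against 0.822% and 0.103% of the female cells.

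Likeness was measured as the Pearson correlation over single cells of each CD45-negative library, for 9771 genes found in at least 5% of the cells of both. Genes were ranked by the lower of the 2 values. Counts were scaled to 10000 UMIs per cell and log-transformed. The cells were not thinned and included the stromal and leukocyte clusters, and the part of depth and of cell mix in these values was not tested. The gene most like Krt8 was Krt18, at 0.33 in male-host and 0.49 in female-host cells, followed by S100a4, Lgals1 and S100a6. The gene most like Sprr1a was Sprr1b, at 0.43 in male-host and 0.51 in female-host cells, followed by Ifrd1 and Dusp5. Krt19 was most like Ero1l, an oxidase of the endoplasmic reticulum, at 0.47 in male-host and 0.45 in female-host cells, followed by 2610528A11Rik, Bnip3, Fam162a and Pgk1, of which Pgk1 encodes a glycolytic enzyme. Krt14 was most like Anxa8, at 0.20 in male-host and 0.19 in female-host cells, and Anxa8 most like Cav1, at 0.26 and 0.31. For Sfn the highest was Clic4, at 0.08 and 0.07, and Krt5 and Krt7 were in too few cells. The closest genes of Krt8 and of Sprr1a were thus their own partner and paralogue, and those of Krt19 came from outside the 10 genes.

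The CD45-positive gate was the background. Set against its Ptprc-positive cells, 4575 male and 3899 female, Krt8, Krt18, Krt19, Sprr1a, Sprr1b and Anxa8 were 45.5-fold to 109-fold higher in the CD45-negative cells of male hosts, and these genes and Krt14 were 40.5-fold to 70.9-fold higher in those of female hosts. The background past 2-fold was 25.5% of 2496 genes for male hosts and 26.1% of 2507 genes for female hosts. The 6 genes of the male and 7 of the female comparison reached the counted level through the CD45-negative gate, where they are high, so their count past 2-fold was bound to be high and nothing is read from it. Krt14, at 58.4 CPM not counted in male hosts, was 31.9-fold higher there. Krt5 is not listed in either CD45-positive table and Krt7 not in the female one. These tables hold only genes with at least 1 UMI. Either Sprr1 gene was found in 1.08% of thinned male and 3.28% of thinned female CD45-positive cells.

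What keratin RNA there was in that gate lay mostly in a cluster led by Col1a1, Sparc and Sox9, with 34 male and 37 female cells, 0.743% and 0.949% of the cells used. It held 84.6% of the Krt18 UMIs of the male and 82.6% of those of the female library, and 78.9% and 82.3% of the Sprr1b UMIs. Sfn was the exception. It was 2.47-fold (2.17 to 2.81) higher in the CD45-negative cells of male hosts and 1.96-fold (1.68 to 2.29) in those of female hosts, and that cluster held 4.04% and 2.10% of its UMIs.

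Lists of related genes were set beside the 10. Over all 13078 genes with at least 20 UMIs in the CD45-negative libraries together, 7.99% were at least 1.5-fold higher in male-host and 11.4% in female-host cells, and the median log2 male:female ratio was -0.01. Of the 10 genes, 8 had 20 UMIs, with 0 higher in male-host and 3 in female-host cells. Of 16 basal genes 14 were measured, 4 of them higher in male-host and 3 in female-host cells, with a median of -0.32. Krt15, a basal keratin, stood at 17.4 CPM in male-host and 0.345 CPM in female-host cells, a ratio of 50.4 (30.4 to 90.5), and 76.8% of its male UMIs lay in the Fgb-led cluster with 5.73% of the cells. Lamb3, a laminin chain, had a ratio of 0.24 (0.222 to 0.260), Krt17 one of 0.284 (0.254 to 0.318), and the integrin gene Itga6 one of 2.05 (1.95 to 2.15). Basal genes other than Krt14 were thus found on both sides.

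Of 36 cornified-envelope genes 25 were measured, 4 higher in male-host and 11 in female-host cells, with a median of -0.36. Cstb, a cysteine protease inhibitor, and Anxa1, an annexin, had most UMIs, with ratios of 1.02 and 1.06. The periplakin gene Ppl stood at 65.4 CPM in male-host and 23.0 CPM in female-host cells, a ratio of 2.84 (2.65 to 3.05), and Cnfn at 0.0653 and 0.391 CPM. Apart from Cstb, Anxa1, Il1rn and Ppl, the highest gene of the list was S100a14, with 15.8 CPM in male-host and 24.1 CPM in female-host cells, so Sprr1a and Sprr1b stood far above most of the list.

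Of 11 luminal urothelial genes 6 were measured, 2 higher in male-host and 3 in female-host cells, with a median of -0.38. Foxa1 stood at 77.5 CPM in male-host and 47.6 CPM in female-host cells, Gata3 at 37.7 and 63.2 CPM, and Pparg, which like these encodes a transcription factor of luminal urothelium, at 4.47 and 10.7 CPM. Of 34 other keratins 12 were measured, 3 higher in male-host and 5 in female-host cells, with a median of -0.46. Krt16 stood at 57.4 CPM in male-host and 76.8 CPM in female-host cells and Krt76 at 48.7 and 29.7 CPM, the other keratins with most UMIs. All other keratins together summed to 161 CPM in male-host and 168 CPM in female-host cells, and the list shares Krt15, Krt16, Krt17 and Krt6a with the basal list and others with the envelope and luminal lists.

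Of 16 regulators of squamous genes all 16 were measured, 1 higher in male-host and 2 in female-host cells, with a median of -0.12. AP-1 subunit genes were high in both: Fosb stood at 2338 CPM in male-host and 2899 CPM in female-host cells, Fos at 1411 and 2043 CPM, and Jund at 1846 and 1535 CPM. Grhl3, a factor of epidermal differentiation, was low, with 0.799 and 3.15 CPM. Of 10 desmosome genes 7 were measured, 0 higher in male-host and 2 in female-host cells, with a median of -0.39. Jup, the plakoglobin gene, stood at 336 CPM in male-host and 330 CPM in female-host cells, and the desmoplakin gene Dsp, which ties keratins to desmosomes, at 7.41 and 16.3 CPM, a ratio of 0.455 (0.404 to 0.513).

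**Figure D5:**
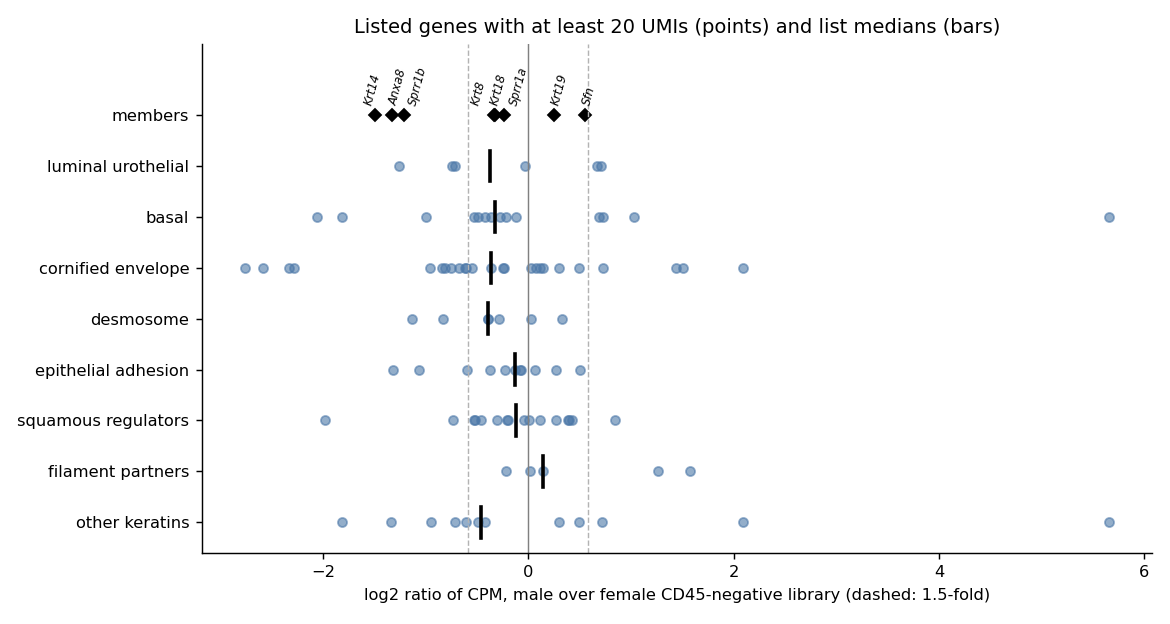
log2 ratio of CPM, male over female CD45-negative library, for 8 of the 10 genes (top) and for listed genes with at least 20 UMIs, with list medians as bars and 1.5-fold as dashed lines. Krt14, Anxa8 and Sprr1b lie left of the dashed line on the female side, and Krt15 lies farthest on the male side.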

How the data were processed

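Per the labels' protocols, live cells sorted on CD45 from MB49 tumours were captured on BD Rhapsody. Named in the submitters' processing notes are mm10, CASAVA 1.8, UMI-tools and Seurat, with the aligner not given in the sources used here. Whole-number UMI counts per gene and cell, not normalized, were deposited by the authors. Cells are named by a running number, so shared barcodes could not be counted.

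Cells with at least 500 UMIs, 250 genes and at most 25% mitochondrial UMIs were kept: 5496 male and 3905 female CD45-negative cells, and 5379 male and 4595 female CD45-positive cells. Of these, Ptprc-negative cells of the CD45-negative gate and Ptprc-positive cells of the CD45-positive gate were used. Scrublet (scanpy 1.11.5) marked at most 1 cell a library and thus had not worked, so no doublets were removed. Counts were summed per library and scaled to CPM. Intervals are 95% and exact: Poisson for CPM, Clopper-Pearson for shares and conditional binomial for ratios (scipy 1.17.1). They cover counting error only, and no p-value was computed. Each gate was clustered with the Leiden method (leidenalg 0.10.2; 2000 variable genes, 30 components, 15 neighbours, resolution 1.0). Clusters were named from marker lists when at least 3 markers stood at 50 CPM and 1 was among the top 10 genes, a naming rule chosen once the data had been seen. Mitochondrial, ribosomal, haemoglobin, antigen-receptor, Xist, Y-linked and unnamed (Gm and Rik) genes, and genes at 0 in either library, stayed out of background counts. The genes and lists were chosen with earlier results of these data known. From each list the text names some of the 2 largest and 2 smallest ratios and the 3 genes with most UMIs. The ratio and thinning steps were tested on simulated data. The lists were luminal urothelial, basal, cornified envelope, desmosome, epithelial adhesion, squamous regulators, filament partners and other keratins. Gene positions are from GENCODE M21.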

Additional observations from a re-analysis of the deposited data

How the results depend on the processing

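With 1 library per group no replicate could be left out. No paired analysis was possible because each group has a single library and the labels give no replicate numbers. The counts of 0 genes past 1.5-fold on the male side and 3 on the female side held with stricter cell filters, with all kept cells, without the stromal and leukocyte clusters, with the mean of per-cell CPM, with mitochondrial and ribosomal genes out of the total, without the cell richest in each gene and at 2-fold. The log2 male:female ratio of Krt14 over these settings of cells and scaling lay between -1.51 and -1.48, that of Sprr1b between -1.27 and -1.20, that of Anxa8 between -1.35 and -1.31 and that of Krt19 between 0.23 and 0.27. That of Sfn lay between 0.52 and 0.73. With the mean of per-cell CPM its ratio was 1.66, past 1.5-fold on the male side, but Sfn lies under the counted level. These counts and ranges also held without the top 5% of Scrublet scores, but Scrublet had not worked, so that says nothing about doublets. Krt14 is 1 of the 3 genes and was counted only through its female level. Depth set the shares and pairings. At 1000, 5000 and unthinned UMIs per cell, either Sprr1 gene was found in 42.9%, 74.3% and 79.6% of male and 55.5%, 87.1% and 89.1% of female cells. The female share was 79.4% without the stromal and leukocyte clusters. In the same order Sprr1a with Sprr1b gave 1.71, 1.21 and 1.19 in male and 1.44, 1.08 and 1.1 in female cells. Krt8 with Krt18 gave 1.07 at 1000 UMIs and 1.04 unthinned in male cells, and 1.09 at 1000 UMIs in female cells. Without the stromal and leukocyte clusters this pair gave 1.01 in male and 1.01 in female cells. Krt14 with Krt5 has no ratio, since the shares give 0 male and 0.925 female thinned cells with both. The libraries hold too few Krt5 and Krt7 UMIs to order.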

Other observations

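The adhesion and filament genes around the keratins were measured too. Of 18 epithelial adhesion genes 11 were measured in the CD45-negative libraries, 0 of them at least 1.5-fold higher in male-host and 3 in female-host cells, with a median log2 male:female ratio of -0.13. Over all 13078 genes with at least 20 UMIs, 7.99% were so on the male and 11.4% on the female side. The tight junction scaffold gene Tjp1 stood at 84.7 CPM in male-host and 92.4 CPM in female-host cells, and the claudin gene Cldn3 at 26.9 and 40.8 CPM. Of 5 filament partners all 5 were measured, 2 higher in male-host and 0 in female-host cells, with a median of 0.14. Plec, the plectin gene that links filaments to the membrane, stood at 326 CPM in male-host and 322 CPM in female-host cells. Its relative Eppk1 stood at 7.96 and 3.31 CPM, a male:female ratio of 2.40 (1.99 to 2.91).

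Sfn RNA in the CD45-positive gate was not that of the keratin-bearing cluster. In the male library it stood at 57.3 CPM (38.4 to 82.4) in a cluster led by Cd8a, Cd8b1 and Gzmk, from 29 UMIs in 23 of 242 cells, and at 28.2 CPM in a cluster led by Foxp3. In the female library the Foxp3-led cluster stood at 26.8 CPM and a cluster led by Calca and Il5 at 36.4 CPM. These were among the highest clusters. In the other library these Calca-led and Gzmk-bearing Cd8a-led clusters stood lower but with overlapping intervals. The former stood at 15.5 CPM (5.69 to 33.7) in the male and the latter at 24.2 CPM (7.85 to 56.4) in the female library. A further cluster led by Cd8a and Rgs16 stood at 44.4 CPM (30.6 to 62.4) in the male library. In the female library it stood at 55.2 CPM (30.2 to 92.7), from 14 UMIs in 37 cells. No order between the libraries was read from these clusters. The median over clusters of at least 50 cells was 6.89 CPM for 19 male and 7.13 CPM for 15 female clusters. CD45-negative cells stood at 19.2 CPM in male-host and 13.1 CPM in female-host cells.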
